A study of Mus musculus with 4 samples.

Results

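The genes described are 10 mouse genes that make, sense or break down prostaglandins: Ptgs1, Ptgs2, Ptges, Ptges2, Ptges3, Ptgis, Ptger1, Ptger2, Ptger4 and Hpgd. They were chosen by name, with earlier results of these data known, and found through the RefSeq accessions of their probes. They are 10 of 22911 genes matched on the array, with 14 of its 56605 non-control probes. The series asked which molecules depend on glucosylceramide synthase, which makes glucosylceramide from ceramide and UDP-glucose, in MC3T3-E1 cells, an osteoblastic line derived from mouse calvaria. The data compare 4 groups, with 1 Agilent one-colour array each: Miglustat at 50 µM, D-PDMP at 10 µM, D-PPMP at 1.0 µM, and a Control group for which the labels give no compound. Treatment lasted 4 days, after which cells were replated and cultured for another 24 h. The labels do not say whether the inhibitors were present in those 24 h, so values given as under an inhibitor are those of its group. All 3 compounds inhibit glucosylceramide synthase. Miglustat is an iminosugar, while D-PDMP and D-PPMP are ceramide analogues with a morpholine ring that differ in the length of their fatty acyl chain, and the doses differ between all 3. The cells are 1 established line, so none of the values covers differences between animals or clones.

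Prostaglandins are short-lived lipid signals made from arachidonic acid, which phospholipases release from membranes. The cyclooxygenases Ptgs1 (constitutive in most tissues) and Ptgs2 (induced by growth factors, cytokines and mechanical load) turn it into the endoperoxide PGH2, from which terminal synthases make PGE2 or prostacyclin. PGE2 acts on G protein-coupled receptors of the EP family, and in bone osteoblasts both make it and respond to it, largely through the cyclic AMP-coupled receptors EP2 and EP4.

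The share of probes well above background was 60.2% under Miglustat, 60.8% under D-PDMP, 62.4% under D-PPMP and 57.4% in Control, no spot was saturated, and the arrays lay in 4 positions of 1 slide, so a group and its position cannot be told apart. Of 12 osteoblast markers, 7 were well above background on all 4 arrays, among them Runx2, Col1a1 and Spp1, whereas Alpl, Ibsp and Dmp1 were not on any. Of the 37 markers of 6 other cell types, 14 were well above background on all 4 arrays and 17 on none. Of 7 macrophage markers, Cd68, Csf1r, Cd14 and Itgam were well above background on all 4 arrays, at ratios over Control between -0.24 and 0.32, and Ptprc, Adgre1 and Tyrobp on none. Their summed processed signal was 5142 under Miglustat, 4842 under D-PDMP, 5098 under D-PPMP and 5025 in Control, of which the Itgam probe alone gave 4444, 4202, 4410 and 4380. Ugcg, which encodes the targeted enzyme, was at log2 ratios over Control of 0.09 under Miglustat, 0.08 under D-PDMP and 0.00 under D-PPMP.

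Levels below are given as the processed signal of the scanner software (arbitrary brightness units, not scaled between arrays and not comparable between probes). The 75th percentile of the signals was 191 under Miglustat, 189 under D-PDMP, 189 under D-PPMP and 183 in Control, so the ratios compare arrays more closely. Ratios are differences of log2 signals after each array's 75th percentile was set to 0, so that a ratio of 1 is a doubling. The value after ± is the error that the software assigns to the ratio of 2 arrays. It is 0.20 for bright probes and covers measuring error alone. A group has only 1 array, so no error between cultures is known, nothing is tested, and the precision is limited by this number. Among probes spotted 10 times on each array, the median SD of the log2 signal of bright ones was between 0.0295 and 0.0371. In a culture, less RNA per cell and fewer cells that make it cannot be told apart.

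Of the 10 genes, 8 were well above background on all 4 arrays, and Ptger2 and Hpgd on none. No measured gene of the 8 differed 2-fold from Control with any inhibitor. Over all genes measured on both arrays, the shares at least 2-fold higher and lower were 0.212% and 0.176% under Miglustat, 0.155% and 0.17% under D-PDMP, and 0.303% and 0.204% under D-PPMP. At a fold of 1.5, a count added once the 2-fold count of 0 was known, Ptgs2 and Ptger1 were higher with Miglustat (2 of 8, against 1.57% of all 14171 genes) and Ptgs2 and Ptger4 with D-PDMP (2 of 8, against 1.34% of 14154). None of the 8 was 1.5-fold higher with D-PPMP, where 2.27% of 14200 genes were, and none was 1.5-fold lower with any inhibitor, where 1.11%, 1.2% and 1.18% of genes were with Miglustat, D-PDMP and D-PPMP. The 10 genes were chosen with earlier results of these data known, so these counts are no test of the list. The median ratio of the 8 genes was -0.06 under Miglustat, 0.04 under D-PDMP and 0.02 under D-PPMP, beside medians of -0.02, 0.00 and -0.01 over all genes measured on both arrays.

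**Figure D1:**
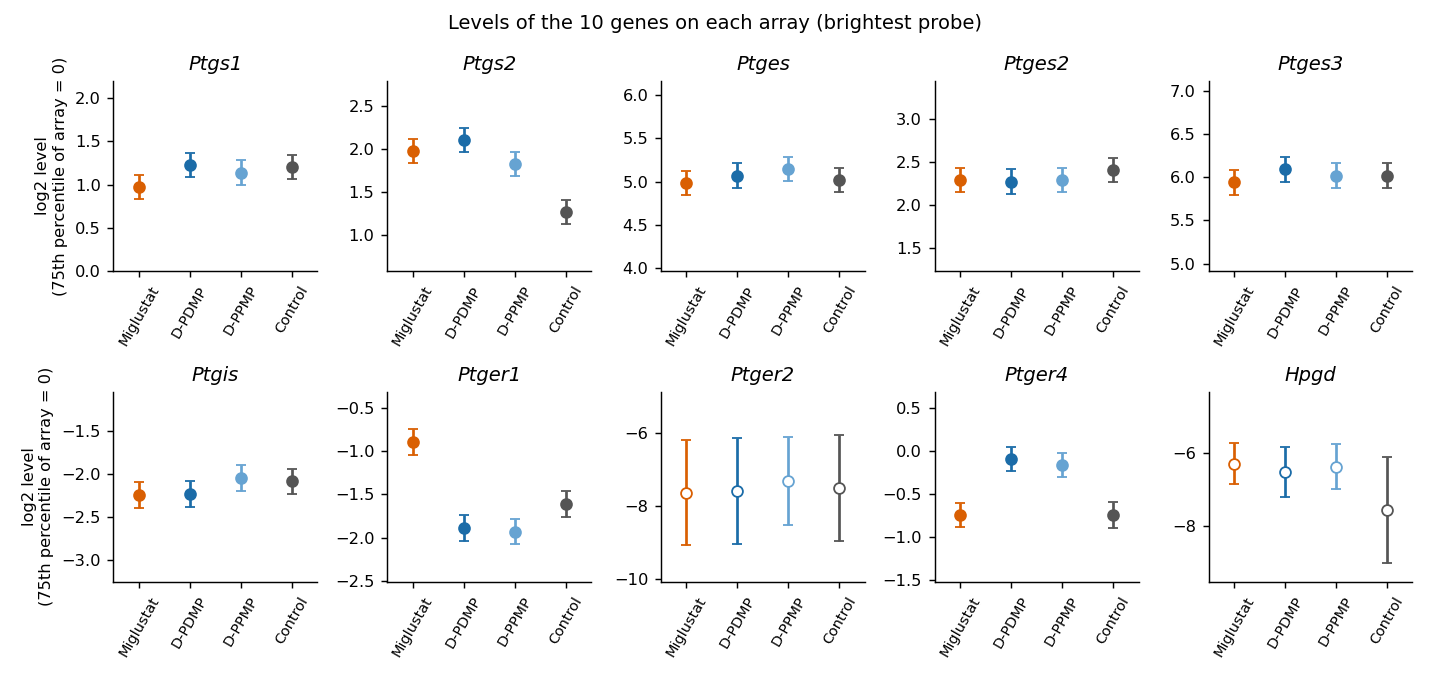
Levels of the 10 genes on the arrays of Miglustat, D-PDMP, D-PPMP and Control, as log2 processed signal relative to the array's 75th percentile, for the brightest probe of each gene. Bars are the scanner software's error of a level; open circles were not well above background, and the scales of Ptger2 and Hpgd span a wider range. Ptgs2 lies above Control on all 3 inhibitor arrays, Ptger1 only on that of Miglustat, and Ptger4 on those of D-PDMP and D-PPMP.

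Ptgs2, the inducible cyclooxygenase, was the only gene of the 8 whose ratio over Control exceeded its error in the same direction with all 3 inhibitors. Its processed signal was 747 under Miglustat, 811 under D-PDMP and 666 under D-PPMP, against 439 in Control. All 3 inhibitor arrays lay above Control, with D-PDMP highest and D-PPMP lowest among them. The log2 ratios were 0.70 ± 0.20 (1.63-fold) under Miglustat, 0.83 ± 0.20 under D-PDMP (1.78-fold) and 0.55 ± 0.20 under D-PPMP (1.47-fold). They share the Control array and are therefore not 3 separate observations. Over the alternatives in processing they ranged from 0.63 to 0.72, from 0.75 to 0.83 and from 0.46 to 0.56. They rest on the only Ptgs2 probe, so the mean of probes could not move them and no other probe could be compared. Ranked among all genes, Ptgs2 was 121st highest of 14171 under Miglustat, 48th of 14154 under D-PDMP and 375th of 14200 under D-PPMP. In the fifth of genes nearest to it in level, which holds the middle levels, it was 9th of 2834, 1st of 2830 and 13th of 2840. Between inhibitors, the difference of D-PDMP over D-PPMP was 0.28 ± 0.20, that of Miglustat over D-PDMP -0.13 ± 0.20 and that of Miglustat over D-PPMP 0.15 ± 0.20, at doses that differ, so the last 2 lie within the measuring error.

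Ptgs1, the other cyclooxygenase, gave signals of 374 under Miglustat, 443 under D-PDMP and 416 under D-PPMP, against 420 in Control. Only the Miglustat array was off Control by more than the error, at -0.23 ± 0.20, where 8.7% of all genes were as far below Control. The ratios were 0.02 with D-PDMP and -0.06 with D-PPMP. The ratio of Ptgs2 therefore exceeded that of Ptgs1 with each inhibitor, on the same arrays. Of the 10 genes, 8 had an entry in the promoter table. The 250 bases before the RefSeq start site (build GRCm38.p6) are shown for Ptgs2 and Ptger4, which were higher than Control with D-PDMP and D-PPMP (Ptger4 on its brighter probe alone), and for Ptgs1, which was not. They read 5′ to 3′ on the gene's strand, and capitals mark the C/EBP match described next. Ptgs2 is at chr1:150099781-150100030 on the plus strand, Ptger4 at chr15:5244188-5244437 on the minus strand, and Ptgs1 at chr2:36230176-36230425 on the plus strand.
Ptgs2: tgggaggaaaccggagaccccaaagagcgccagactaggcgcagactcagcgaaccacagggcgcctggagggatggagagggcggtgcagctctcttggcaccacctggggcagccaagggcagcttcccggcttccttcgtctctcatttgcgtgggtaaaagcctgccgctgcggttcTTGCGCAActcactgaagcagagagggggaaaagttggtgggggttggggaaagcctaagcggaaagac
Ptger4: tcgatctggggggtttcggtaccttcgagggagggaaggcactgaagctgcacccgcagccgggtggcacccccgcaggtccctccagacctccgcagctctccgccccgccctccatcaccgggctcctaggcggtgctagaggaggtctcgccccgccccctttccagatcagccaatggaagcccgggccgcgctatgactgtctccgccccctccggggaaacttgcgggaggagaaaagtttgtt
Ptgs1: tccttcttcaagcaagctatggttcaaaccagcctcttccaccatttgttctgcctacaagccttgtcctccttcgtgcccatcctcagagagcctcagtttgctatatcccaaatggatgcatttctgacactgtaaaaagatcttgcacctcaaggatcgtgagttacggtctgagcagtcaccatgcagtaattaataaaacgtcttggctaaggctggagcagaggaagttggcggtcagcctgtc

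A set of 9 motifs was searched on both strands, first over the 250 bases before the start. The Ptgs2 stretch then held a C/EBP match but no cyclic AMP response element half-site and no E-box. The search was widened after that result was seen to 300 bases, with the 50 after the start, because known Ptgs2 elements lie there. The wider Ptgs2 window held the C/EBP match (TTNNGCAA, positions -69 to -62), a cyclic AMP response element half-site (CGTCA, positions 14 to 18 counted from the start as 1) and an E-box (CACGTG, positions 17 to 22) whose first letters overlap the half-site. These 3 kinds of element are known regulators of the gene, bound by C/EBP, CREB/ATF and USF proteins. The half-site and E-box lie just after the annotated start, at chr1:150100036-150100060 on the plus strand, and are in capitals in the stretch that follows.
Ptgs2 site: caccactaCGTCACGTGgagtccgc
Of all 27025 promoter windows, 10.8% held the C/EBP letters, 21% the half-site and 7.24% the E-box. The windows of Ptgs1 and Ptger4 held none of the 3, but Ptges3 and Ptges2, both near Control, held the half-site and the E-box in 1 match each, and Ptger2 a C/EBP match. With the window chosen on Ptgs2, this contrast is no support for a role of these letters. The looser letters of a serum response element (CC, any 6 bases, GG, in 73% of all windows) matched 2 times in Ptgs2, 8 times in Ptger4 and 0 times in Ptgs1. Those of an NF-kB site (GGG, any 5 bases, CC, in 50.4%) matched 1, 3 and 1 times. Neither these nor the Ptgs2 window held a full cyclic AMP response element (TGACGTCA, 1.88% of all windows), an AP-1 site (TGANTCA, 7.93%), an EGR site (GCGNGGGCG, 5.55%) or a TATAA stretch (25.5%). A match describes letters in the window and shows no binding.

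Of the RNAs annotated beside Ptgs2, 1 was measured. Ptgs2os2, annotated as an opposite-strand RNA of Ptgs2, was well above background on all 4 arrays, at -0.61 under Miglustat, 0.17 under D-PDMP and 0.07 under D-PPMP. Ptgs2os was not well above background on any array.

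The PGE2 synthases that act after the cyclooxygenases stayed close to Control. Ptges, the inducible microsomal PGE synthase that is often coupled to Ptgs2, gave 6010 under Miglustat, 6352 under D-PDMP and 6682 under D-PPMP on its brightest probe, against 5903 in Control. The scaled ratios were -0.04, 0.05 and 0.13, each with an error of 0.20. The other 2 Ptges probes ran from -0.10 to 0.01 under Miglustat, from 0.04 to 0.12 under D-PDMP and from 0.13 to 0.22 under D-PPMP, where the last value was the only 1 of the 9 beyond its error. Ptges2, a membrane-associated PGE synthase, gave 931, 912 and 925 with Miglustat, D-PDMP and D-PPMP, against 965 in Control, with ratios of -0.12, -0.13 and -0.11. Ptges3, the p23 co-chaperone of Hsp90 that is also described as a cytosolic PGE synthase, gave 11750, 12890 and 12250, against 11860 in Control, with ratios of -0.08, 0.07 and 0.00. All of these lay within the measuring error. Its level is uncertain where probes also bind transcripts of related sequences, since the annotation holds a Ptges3 pseudogene.

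Ptgis, the prostacyclin synthase, had 2 probes of low signal. The brighter gave 40.0 under Miglustat, 40.3 under D-PDMP and 45.7 under D-PPMP, against 43.0 in Control, with ratios of -0.17, -0.15 and 0.04 and an error of 0.21. The dimmer gave 7.75, 8.59 and 10.4, against 6.68 in Control, with ratios of 0.15 ± 0.36, 0.31 ± 0.35 and 0.59 ± 0.33. Only the dimmer probe with D-PPMP was beyond its error, and the brighter probe did not share that difference.

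**Figure D2:**
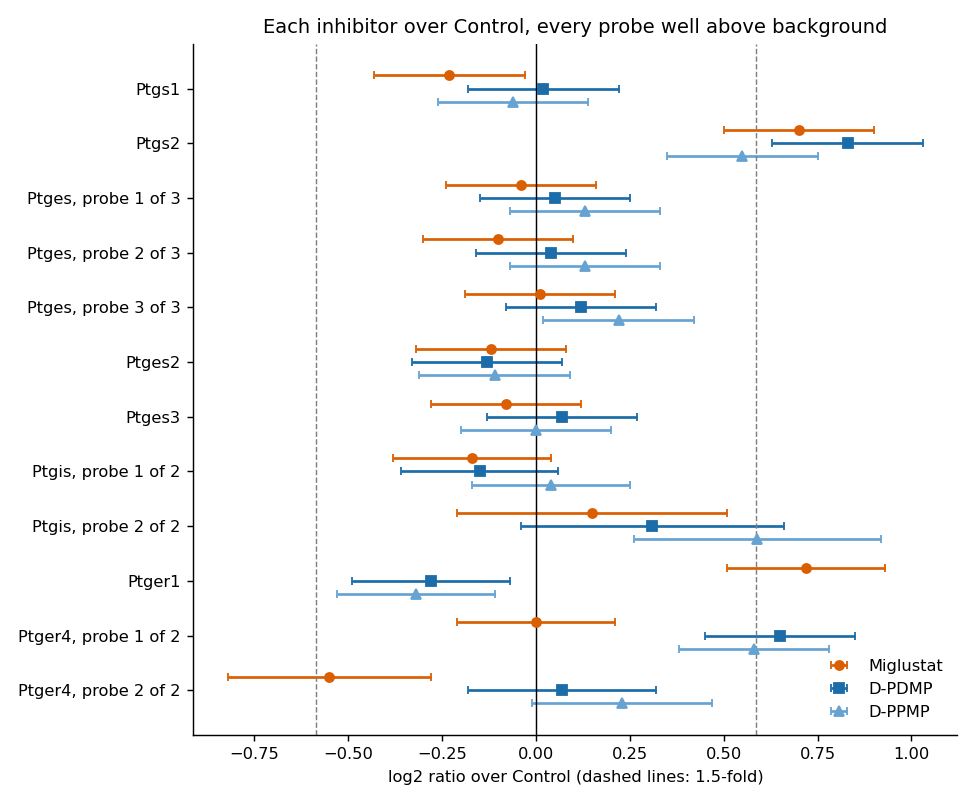
Log2 ratios over Control with Miglustat (circles), D-PDMP (squares) and D-PPMP (triangles), for each probe of the genes that was well above background on all 4 arrays, with probes of a gene numbered from the brightest. Bars are the scanner software's error of a ratio and dashed lines mark 1.5-fold; the Ptgs2 points lie between 0.55 and 0.83, and the Ptger1 point of Miglustat lies opposite those of D-PDMP and D-PPMP.

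Among the receptors, Ptger1 and Ptger4 differed from Control with different inhibitors. Ptger1 encodes EP1, a PGE2 receptor that acts through calcium. On its only probe it gave 103 under Miglustat, 50.9 under D-PDMP and 49.5 under D-PPMP, against 59.7 in Control. Miglustat was above Control and the D-PDMP and D-PPMP arrays were both below it. The ratios were 0.72 ± 0.21 under Miglustat (1.65-fold), -0.28 ± 0.21 under D-PDMP and -0.32 ± 0.21 under D-PPMP. Ptger1 stood 106th highest of 14171 genes with Miglustat and 6th of the 2834 nearest in level. With D-PDMP and D-PPMP, 6.2% and 5.38% of genes were as far below Control. With normexp background correction the Miglustat ratio was 0.35, under 1.5-fold. Set directly against the other inhibitors, at unlike doses, Ptger1 was 2.01-fold higher under Miglustat than under D-PDMP (1.00 ± 0.21) and 2.06-fold higher than under D-PPMP (1.04 ± 0.21). Of all genes, 2.12% and 2.31% were at least 1.5-fold higher with Miglustat in these comparisons. The share at least 2-fold higher was not computed between inhibitors. Under normexp correction the ratios were 0.48 and 0.51.

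Ptger4 encodes EP4, the cyclic AMP-coupled receptor through which PGE2 stimulates bone formation in rodents. Its brighter probe, designed on the transcript NM_001136079, gave 114 under Miglustat, 178 under D-PDMP and 169 under D-PPMP, against 110 in Control. The arrays of D-PDMP and D-PPMP were above Control, and that of Miglustat was level with it. The ratios were 0.00 ± 0.21 under Miglustat, 0.65 ± 0.20 under D-PDMP (1.57-fold) and 0.58 ± 0.20 under D-PPMP (1.49-fold, just under 1.5). It stood 148th highest of 14154 genes with D-PDMP and 335th of 14200 with D-PPMP. The dimmer probe, designed on NM_008965, gave 10.2, 15.6 and 17.2 with Miglustat, D-PDMP and D-PPMP, against 14.2 in Control. Its ratios were -0.55 ± 0.27, 0.07 ± 0.25 and 0.23 ± 0.24, so it did not show the difference from Control with D-PDMP or D-PPMP. Both probes were lower under Miglustat than under D-PDMP, at -0.65 ± 0.20 on the brighter and -0.63 ± 0.27 on the dimmer, and lower than under D-PPMP, at -0.58 ± 0.20 and -0.78 ± 0.26. On the brighter probe the first of these reached 1.5-fold, as did 1.65% of all genes, and the second fell just short of it, where 2.61% of genes were 1.5-fold lower. Between D-PDMP and D-PPMP none of the 8 genes differed 1.5-fold, beside 0.508% of genes higher and 1.47% lower with D-PDMP. The mean of both probes was 0.36 with D-PDMP and -0.28 with Miglustat, each against Control.

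Ptger2, which encodes the related cyclic AMP-coupled receptor EP2, was not well above background on any array, with signals of 0.959 under Miglustat, 0.974 under D-PDMP and 1.18 under D-PPMP, against 1.00 in Control. Hpgd, the dehydrogenase that inactivates prostaglandins, was likewise not well above background, with signals of 2.46, 2.08 and 2.29 on the inhibitor arrays, against 0.984 in Control. These lie at the bottom of the scale, no fold is given for them, and the 1 probe of each gene places a bound on its signal rather than a level.

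**Figure D3:**
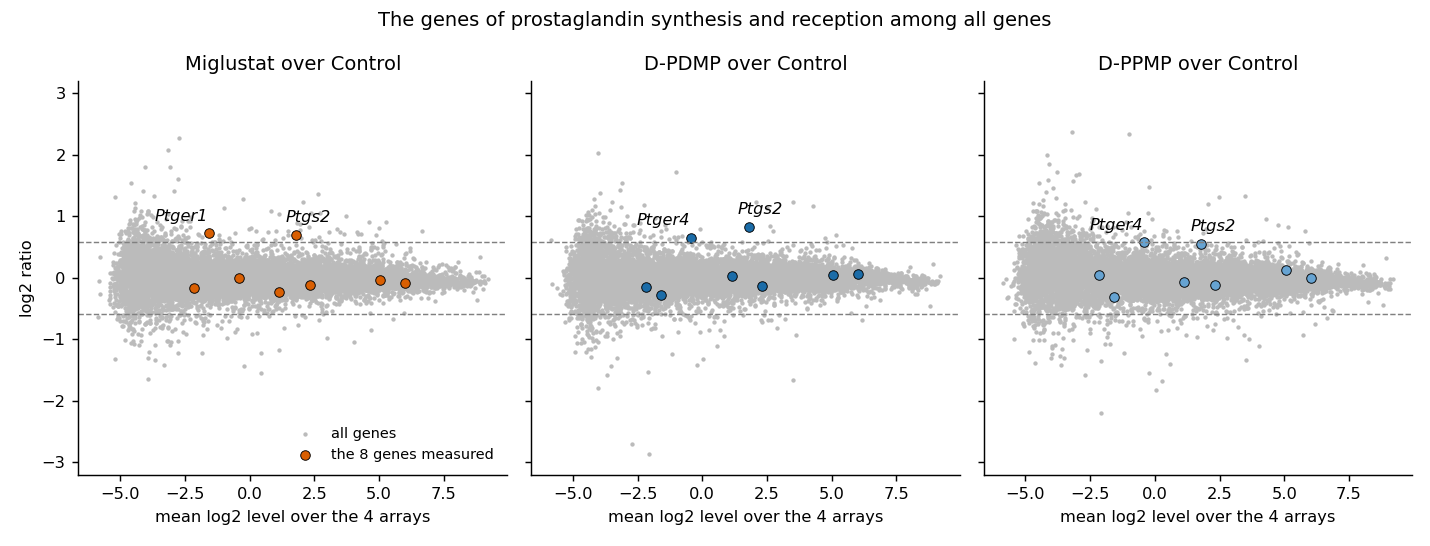
Log2 ratio over Control against the mean log2 level over the 4 arrays, for all genes well above background on both arrays (grey) and the 8 measured prostaglandin genes (coloured), in 1 panel per inhibitor. Dashed lines mark 1.5-fold; the labelled genes are those farther than 0.5 from Control, and the other members lie within the grey band of genes of similar level.

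The genes with the most similar ratios were looked up among the 14002 other genes well above background on all 4 arrays, as the 3 with the smallest Euclidean distance over the 3 log2 ratios to Control. For Ptgs2 they were Slc16a3, a monocarboxylate transporter, at 0.78, 0.81 and 0.55 (Miglustat, D-PDMP, D-PPMP), the homeobox gene Rax at 0.69, 0.84 and 0.46, and Gm3414 at 0.65, 0.87 and 0.64. For Ptger1 they were Rarres2, the secreted adipokine chemerin, at 0.70, -0.23 and -0.28, the potassium channel Kcnk5 at 0.60, -0.37 and -0.30, and Slc2a13, an inositol transporter, at 0.65, -0.16 and -0.41. For Ptger4 they were the serine protease Htra4 at -0.05, 0.66 and 0.61, Speer4b at 0.07, 0.66 and 0.52, and Synb, syncytin B, at 0.04, 0.59 and 0.67. Distances were between 0.06 and 0.17. With only 3 ratios that share 1 Control array, such likeness is a description of these arrays.

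The other genes of the pathway were followed in 8 lists with 123 distinct genes that had a probe, measured or not. In them 9 genes were at least 1.5-fold from Control with at least 1 inhibitor. The share of all genes that pass this pooled count was not computed, so whether 9 is many cannot be told. With a single inhibitor, 97.3%, 97.5% and 96.6% of all measured genes lay within 1.5-fold of Control (Miglustat, D-PDMP, D-PPMP). Supply of arachidonic acid was represented by 16 phospholipase genes, of which 8 were measured. Pla2g4a, the cytosolic phospholipase A2 that releases arachidonic acid on calcium signals, gave 1318 under Miglustat, 1759 under D-PDMP and 1651 under D-PPMP, against 1504 in Control, at -0.25, 0.17 and 0.09. None of the 8 was 1.5-fold higher with any inhibitor. Pla2g4c, a calcium-independent relative, was 1.5-fold lower with D-PDMP, at -0.59 ± 0.30, with -0.47 for both Miglustat and D-PPMP. Its other probe, well above background on 3 arrays, lay on the opposite side at 0.72, 1.00 and 0.86, so its direction is not settled. Of 8 further prostanoid synthases 3 were measured and none was 1.5-fold from Control. The farthest were Akr1b8 at -0.15, 0.20 and 0.12, and Akr1b3, an aldose reductase with PGF synthase activity, at -0.11, 0.07 and 0.07 (Miglustat, D-PDMP, D-PPMP). Transport and breakdown had 6 measured genes, none 1.5-fold from Control. Among them Slco2a1, the prostaglandin uptake transporter, was at -0.27, -0.02 and 0.24, and Ptgr2, a prostaglandin reductase, at 0.00, -0.20 and -0.19.

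Of 7 genes in the list of other receptors, 4 were measured, namely Ptgdr2, Ptgfr, Tbxa2r and Ptgfrn. Ptgfrn encodes a regulator of the PGF2 alpha receptor and is not itself a prostanoid receptor. Ptgfr, the receptor for PGF2 alpha, gave 11.7 under Miglustat, 5.75 under D-PDMP and 6.89 under D-PPMP, against 12.4 in Control. D-PDMP and D-PPMP lay below Control, and Miglustat close to it. The ratios were -0.15 ± 0.26, -1.16 ± 0.33 and -0.90 ± 0.30, so Ptgfr was the only gene of this list at least 1.5-fold from Control, and with D-PDMP more than 2-fold lower. These signals lie near the background, where ratios spread most. The medians of the 4 were -0.20, -0.11 and -0.26 with Miglustat, D-PDMP and D-PPMP. No array had the prostacyclin receptor Ptgir or the EP3 receptor Ptger3 well above background. In the lipoxygenase and leukotriene branch, which uses the same arachidonic acid, 4 of 13 genes were measured and none was 1.5-fold from Control. Ltb4r2, a leukotriene receptor, was at 0.06, -0.11 and -0.32, and Alox5ap, the activating protein of 5-lipoxygenase, at -0.24, -0.10 and -0.22.

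Genes through which EP receptors signal came next. Of 30 genes for G proteins, adenylyl cyclases, protein kinase A and their partners, 22 were measured and none was 1.5-fold from Control on its brightest probe, with medians of -0.05, 0.02 and 0.01 with Miglustat, D-PDMP and D-PPMP. Gnas, the stimulatory G protein alpha subunit that couples EP2 and EP4 to adenylyl cyclase, was at -0.01, -0.12 and -0.14 on that probe. A dim Gnas probe, well above background on all 4 arrays, gave 19.85 under Miglustat, 15.64 under D-PDMP and 13.95 under D-PPMP, against 10.63 in Control, or 0.84, 0.50 and 0.35, so the probes disagree. Gnas was the only gene of the 8 lists with another measured probe past 1.5-fold where the brightest was past it with no inhibitor. The farthest were Adcy3, an adenylyl cyclase, at -0.31, 0.07 and 0.07, and Prkar2b, a regulatory subunit of protein kinase A, at -0.06, 0.28 and 0.27.

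Genes known to respond to cyclic AMP included several that were farther from Control. Of 20 such genes 14 were measured. At least 1.5-fold higher than Control were 4 under Miglustat, 3 under D-PDMP and 2 under D-PPMP, beside 1.57%, 1.34% and 2.27% of all genes. None was 1.5-fold lower, beside 1.11%, 1.2% and 1.18% of all genes. The medians were 0.12, 0.28 and 0.27, beside -0.02, 0.00 and -0.01 over all genes. Nr4a1, an orphan nuclear receptor induced by PGE2 in osteoblasts, gave 991, 989 and 963 on the arrays of Miglustat, D-PDMP and D-PPMP, against 405 in Control, or 1.23, 1.23 and 1.20. Dusp1, a MAP kinase phosphatase, was at 1.37, 0.84 and 0.40, and Fos, a subunit of AP-1, at 1.06, 0.76 and 0.10. Pde4b, a cyclic AMP phosphodiesterase, was at 0.10, 0.38 and 0.63 on its brightest probe, which the counts use. A dimmer Pde4b probe, well above background on all 4 arrays, was at 0.49, 0.77 and 0.81. Growth factor and MAP kinase signals also induce several genes of this list, and higher values of Nr4a1, Dusp1 and Fos were known from earlier results of these data when the list was written. The counts and medians of this list therefore depend in part on its choice.

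In the list of 26 genes that control Ptgs2 transcription or mRNA decay, all 26 were measured, and 2 were at least 1.5-fold higher with each inhibitor. With Miglustat and D-PDMP they were Fos and Egr1, an immediate early zinc finger factor, and with D-PPMP Egr1 and Zfp36l2. Over all genes, 1.57%, 1.34% and 2.27% were 1.5-fold higher with Miglustat, D-PDMP and D-PPMP. Fos is also in the cyclic AMP list, and its higher values were known beforehand, as stated there. Egr1 gave 3752, 5095 and 4378 with Miglustat, D-PDMP and D-PPMP, against 2181 in Control, or 0.72, 1.17 and 0.96. Zfp36l2, an mRNA-destabilising protein that binds AU-rich elements, was at 0.06, 0.48 and 0.76. Of the C/EBP factors, which act on Ptgs2, Cebpb was at -0.12, -0.05 and -0.04, and Cebpd at 0.46, 0.36 and 0.09, beyond its error of 0.20 with Miglustat and D-PDMP. The medians of the list were -0.01, 0.05 and 0.00.

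**Figure D4:**
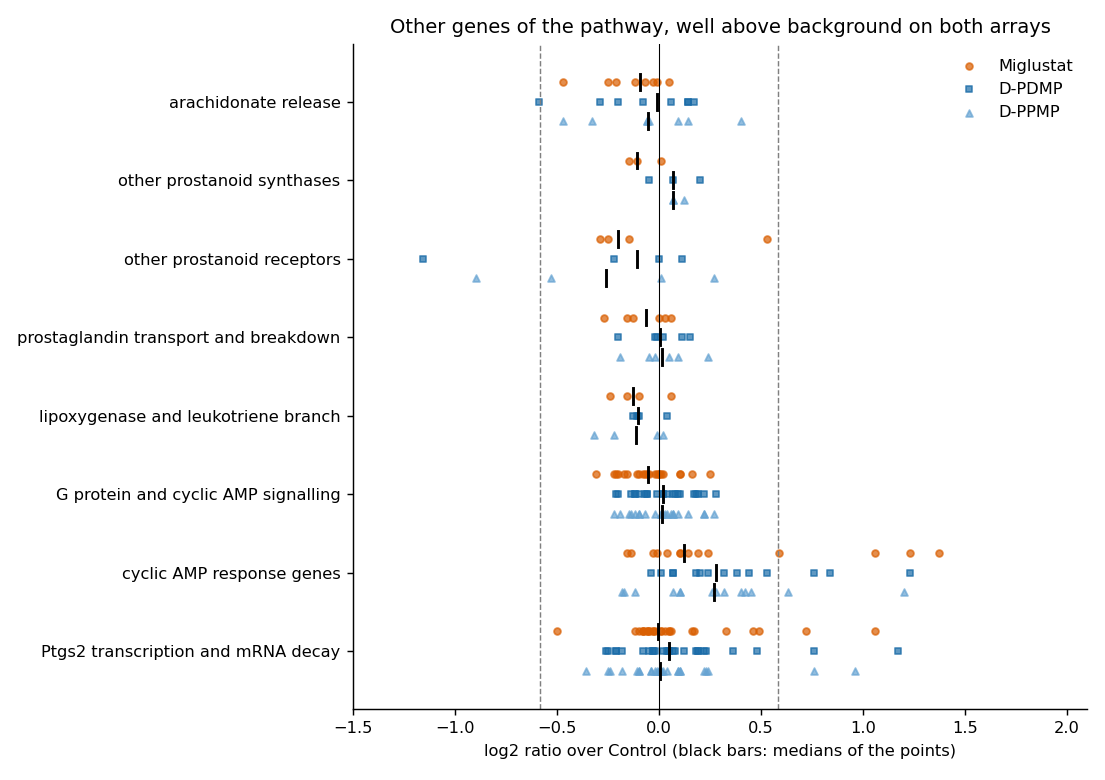
Log2 ratios over Control with Miglustat (circles), D-PDMP (squares) and D-PPMP (triangles) of the other pathway genes, by list, for genes well above background on both arrays. Black bars are medians of the points and dashed lines mark 1.5-fold; the points beyond 1 are Dusp1, Nr4a1, Fos and Egr1, and the point below -1 is Ptgfr with D-PDMP.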

How the data were processed

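Total RNA was labelled with Cy3 by a low input one-colour protocol and hybridised to 4 arrays, per the labels' protocols. The deposited scanner files hold intensity values from Agilent Feature Extraction 12.1.1.1, per the file headers, background-corrected array by array, with no normalization across them. The deposited log2 table of the authors matched log2 of these signals, floored at 1, minus each array's 75th percentile, within 0.05 for 100% of probes. This settles its scale, centring and direction, and its column medians were -4.00, -4.00, -3.89 and -4.10 (Miglustat, D-PDMP, D-PPMP, Control).

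Control spots and outlier spots (66 to 85 per array) were left out, log2 signals were averaged per probe, and the 75th percentile over all probes was subtracted. By accession, 32994 of 56605 probes (58.3%) matched a RefSeq gene of GRCm38.p6, while the array design names mm9. A gene takes its brightest probe and is measured in a comparison when well above background on both arrays. No test was possible with 1 array per group. The genes and lists were chosen with earlier results of these data known. Genes named are the 10, up to 4 per list beyond 1.5-fold or else the farthest 2, and the 3 most like each gene spanning 1.5-fold. Pla2g4a, Cebpb, Cebpd, Gnas, Ptgir, Ptger3, Ptgs2os and Ptgs2os2 fall outside this rule and were added after values were seen. So were the 1.5-fold count of the 10 genes (the rule set for them was 2-fold), the ranks among all genes, and the restriction of list medians to genes measured on both arrays. The normexp alternative used median spot signals. Scaling and calling were tested on simulated data. Tools were Python 3.11.15, pandas 2.3.3, R 4.3.3 and limma 3.58.1.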

Additional observations from a re-analysis of the deposited data

How the results depend on the processing

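The 9 alternatives were normexp background correction (offset 50), quantile and cyclic loess normalization, the percentile taken over bright probes only, the authors' log2 values, the mean of a gene's probes, 2 other filters on dim probes, and outlier spots kept. The slide could not be fitted as a block, since all arrays share 1 slide. No paired analysis was possible because each group has 1 array. Of 432 recomputed ratios of single genes, 425 moved by less than the measuring error, 7 by more, and none that was 1.5-fold changed sign. The 2 filters on dim probes cannot move the ratio of a single gene, nor can the mean of probes where a gene has only 1 probe. The authors' values are the same signals scaled in the same way. Part of the 425 was therefore fixed in advance, and that count is no measure of robustness. The 2-fold count among the 10 genes was 0 with each inhibitor and became 1 with each when dim probes were kept, through Hpgd. The 1.5-fold count was 2 with Miglustat and 1 under normexp, 2 with D-PDMP and 1 under normexp or with the mean of probes, and 0 with D-PPMP. Over all genes, normexp left 38, 10 and 21 genes 1.5-fold higher with Miglustat, D-PDMP and D-PPMP, against 223, 189 and 322. Counts under normexp thus fell for genes in general. With the mean of probes, 282 genes were 1.5-fold higher with D-PDMP. The 1.5-fold count of the 10 genes also changed with the filter on dim probes. With dim probes kept it was 3, 3 and 1, where 1946, 2337 and 2918 of all 22911 genes were 1.5-fold higher. The 3 differences of at least 1.5-fold between inhibitors became 0 under normexp and 4 with the mean of probes. The 9 list genes beyond 1.5-fold became 5 under normexp and 30 with dim probes kept. Over all genes, 1.5-fold splits (higher and lower) turned to 139 and 202 under Miglustat, 116 and 264 under D-PDMP, and 145 and 361 under D-PPMP under quantile normalization, against 223 and 157, 189 and 170, and 322 and 167. The cause was not tested. With genes well above background on at least 1 array, the cyclic AMP response medians were 0.14 under Miglustat, 0.34 under D-PDMP and 0.30 under D-PPMP, a choice changed after seeing the data, and the phospholipase median under D-PPMP was 0.02 in place of -0.05. Signal over background limits Ptger2, Hpgd, Ptgfr and the dimmer probes of Ptgis and Ptger4.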

Other observations

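Some genes of the lists that the text has not described stood apart from Control, and were chosen after their values were seen. Areg, an EGF receptor ligand that responds to cyclic AMP, was well above background with D-PDMP and D-PPMP but not with Miglustat or in Control. With D-PDMP and D-PPMP it lay 2.38-fold and 2.05-fold above the lowest Control signal that counted as well above background. This is no strict lower limit of the fold. The Control signal of Adcy8, 5.162, was not well above background either, and the errors of the Areg ratios are 0.42. Il6, a cytokine that PGE2 induces in osteoblasts, gave 93.9 under Miglustat, 83.9 under D-PDMP and 54.6 under D-PPMP, against 59.8 in Control, and its other probe was at 0.72, 0.44 and -0.16. Tbxa2r, the thromboxane receptor, was at 0.53 ± 0.25 under Miglustat, 0.00 ± 0.26 under D-PDMP and -0.53 ± 0.28 under D-PPMP. Zfp36, tristetraprolin, which destabilises the Ptgs2 mRNA, was at 0.49 under Miglustat, -0.18 under D-PDMP and -0.36 under D-PPMP, each with an error of 0.20.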
